A study of Mus musculus with 16 samples.

Results

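Ppa2 encodes the mitochondrial inorganic pyrophosphatase, and its transcript was measured by 3 bead array probes in testes of mice that overexpress a Musashi protein. It is 1 of 840 genes that the authors' deposited comparison tables name. Its probes were selected by that name, and so by the measured fold and p-value that put them in a table. They are all 3 of the Ppa2 probes in the array design, out of 25697 probes with values on 16 arrays. All 3 stand in the TgMsi1 table and none in the TgMsi2 table. The TgMsi1 difference of Ppa2 is therefore given as a description only, and the test reported here is that of TgMsi2 against Wt(TgMsi2), arrays that the TgMsi1 table did not compare. The fit takes its spread from all 16 arrays, those of the TgMsi1 line included, so the values from the 8 TgMsi2-line arrays alone are given beside it.

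The arrays held total RNA of whole testes from B6xCBA mice aged 3 months. There were 4 groups of 4 arrays: TgMsi1 (a testis-specific Musashi-1 transgene), their wild-type littermates Wt(TgMsi1), TgMsi2 (a testis-specific Musashi-2 transgene), and their wild-type littermates Wt(TgMsi2). Musashi proteins bind RNA and regulate the translation, splicing and stability of their targets. The sources used here give neither transgene's promoter, nor the number of founder lines, nor any pooling of mice. Since no label ties each array to a mouse of its own, p-values cover the spread between arrays, and that spread may be technical. The transgenes' own transcripts are named in neither comparison table, so they could not serve as a check of the labels.

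Inorganic pyrophosphate is released whenever a cell joins nucleotides into RNA or DNA, charges a tRNA with its amino acid, or activates a fatty acid with coenzyme A. Pyrophosphatases split it into phosphate, which keeps these reactions running forward. Ppa2 does so in the mitochondrial matrix and its relative Ppa1 in the cytosol. Male germ cells remodel their mitochondria as they pass through meiosis and become sperm.

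The sequences of the 3 probes are shown because they decide how far the probes measure the same thing. Each is 50 bases long, is taken from the deposited tables, and lies on the plus strand of chromosome 3, in a genome build that the sources used here do not give. The probe that starts at base 456 of the transcript, called the 456 probe here, maps to chr3:133002232-133002281, and the 471 probe maps to chr3:133002247-133002296. Capitals mark the 34 bases that these 2 probes share. The junction probe, at base 792, is split over chr3:133030914-133030914 and chr3:133033344-133033392, with 2429 bases between the blocks, as a probe over a splice junction is. Its capital marks the 1 base of the upstream block.
Ppa2 456 probe (ILMN_1234589): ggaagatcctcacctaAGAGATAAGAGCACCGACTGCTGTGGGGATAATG
Ppa2 471 probe (ILMN_2624448): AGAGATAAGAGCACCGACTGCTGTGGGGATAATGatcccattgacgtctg
Ppa2 junction probe (ILMN_2817996): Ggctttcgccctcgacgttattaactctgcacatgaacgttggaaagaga

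The first 2 probes therefore read almost the same stretch of the transcript and are not independent measurements. By sequence they are offset by 16 bases, 1 more than their listed positions give. The junction probe shares no run longer than 6 bases with the 456 probe or 5 bases with the 471 probe. Each probe has at least 1 of 3 forward reading frames without a stop codon. The tables do not say which part of the transcript, coding or not, each probe reads.

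In TgMsi2 testes, Ppa2 was higher than in wild-type littermates on every array and at all 3 probes. It rose by about 1.4-fold at the overlapping probes, which passed the test over all 25697 probes. The junction probe differed by a similar amount and missed the threshold. At the 456 probe, the normalized log2 signal was 11.02, 11.06, 10.96 and 10.97 on TgMsi2 arrays 1 to 4, against 10.50, 10.46, 10.63 and 10.37 on Wt(TgMsi2) arrays 1 to 4. The lowest TgMsi2 array lay 0.33 above the highest wild-type array. Ppa2 rose at this probe by 0.51 on the log2 scale (SE 0.07, 95% interval 0.37 to 0.66), a 1.43-fold change, with an adjusted p of 0.000953 in limma and a two-sided exact permutation p of 0.0286. That exact p is the smallest that 70 splits of 8 arrays can give.

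The 471 probe had log2 signals of 11.21, 11.26, 11.31 and 11.22 in TgMsi2, against 10.75, 10.75, 10.87 and 10.72 in Wt(TgMsi2). The TgMsi2 arrays fell within 0.10 of one another, and the gap to the highest wild-type array was 0.34. Ppa2 rose at this probe by 0.48 (SE 0.08, 95% interval 0.31 to 0.64), or 1.39-fold, with a limma adjusted p of 0.0031 and an exact permutation p of 0.0286. The call was lost without TgMsi2 replicates 1 and 3 together (log2 difference 0.47, limma adjusted p = 0.0574).

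The junction probe had log2 signals of 12.03, 12.22, 11.96 and 12.16 in TgMsi2, against 11.37, 11.81, 11.62 and 11.70 in Wt(TgMsi2). The groups did not overlap here either, with a gap of 0.15. The difference was 0.47 (SE 0.15, 95% interval 0.15 to 0.78), or 1.38-fold, and its limma adjusted p of 0.0558 missed the threshold of 0.05. The exact permutation p was 0.0286. It passed without TgMsi1 replicate 2 (limma adjusted p = 0.0243) or Wt(TgMsi1) replicate 2 (0.0354). In a fit of the 8 TgMsi2-line arrays alone, which holds none of the arrays that chose the probes, all 3 probes passed. The limma adjusted p was then 0.0035 at the 456 probe (SE 0.06), 0.00129 at the 471 probe (SE 0.04) and 0.0277 at the junction probe (SE 0.10). The spread between arrays of a group was wider at this probe than at the other 2 in each of the 4 groups.

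**Figure D1:**
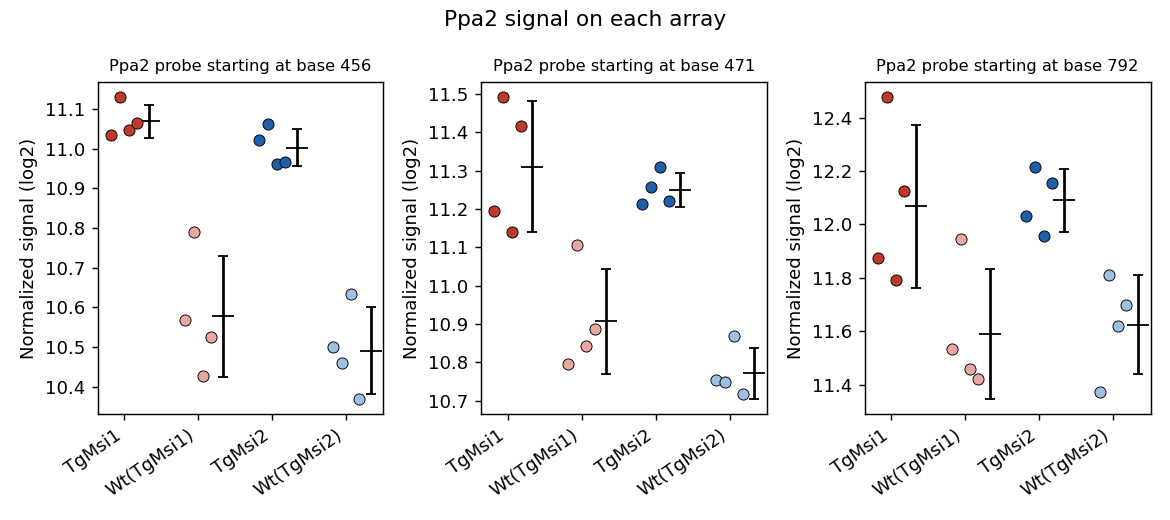
Normalized Ppa2 signal (log2, vertical axis, not from 0) on each of the 16 arrays, 1 panel for each probe; points are arrays in replicate order, and bars show the group mean ± SD (n = 4). In the TgMsi2 line the transgenic arrays lie above the wild-type arrays in all 3 panels, while the TgMsi1 and Wt(TgMsi1) ranges overlap at the junction probe.

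Limma called 6.2% of all 25697 probes higher in TgMsi2 and 5.32% lower, or 1594 and 1366 probes. These counts rest on few arrays: they were 672 and 633 without TgMsi2 replicate 1, 715 and 718 without TgMsi2 replicate 3, and 910 and 889 without Wt(TgMsi2) replicate 3. Without Wt(TgMsi2) replicate 4 they were 934 and 847, and without Wt(TgMsi2) replicate 2 the count called higher was 1059. The same 2 Ppa2 probes were called in each of these fits. Among the 10831 brighter ones (mean log2 over 8) it called 12.6% higher. Against that, 2 of the 3 Ppa2 probes were called, and these overlap. All 4 TgMsi2 arrays lay above all 4 wild-type arrays in 7.6% of all probes, and in 3 of 3 Ppa2 probes. By p-value, the 456 probe ranked 58, the 471 probe ranked 198 and the junction probe ranked 3158 of 25697 in this comparison. By the size of the rise they ranked 585, 702 and 731 in the same order. The smallest fold in the authors' deposited TgMsi2 table is 1.5, and the Ppa2 folds of 1.43, 1.39 and 1.38 lie below it.

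In TgMsi1 testes, the values that placed Ppa2 in the authors' deposited table were of the same order. The 456 probe had log2 signals of 11.04, 11.13, 11.05 and 11.07 on TgMsi1 arrays 1 to 4, against 10.57, 10.79, 10.43 and 10.52 on Wt(TgMsi1) arrays 1 to 4. The groups were separate, and the transgenic arrays lay closer together (SD 0.04) than the wild-type arrays (SD 0.15). The 471 probe had 11.19, 11.49, 11.14 and 11.42 in TgMsi1, against 10.80, 11.11, 10.84 and 10.89 in Wt(TgMsi1). Here the gap between the groups was 0.03. The junction probe had 11.88, 12.48, 11.79 and 12.13 in TgMsi1, against 11.53, 11.95, 11.46 and 11.42 in Wt(TgMsi1), and Wt(TgMsi1) replicate 2 lay above 2 of the TgMsi1 arrays, replicates 1 and 3. The log2 differences were 0.49 (SE 0.07), 0.40 (SE 0.08) and 0.48 (SE 0.15) in the order of the probes. The authors' deposited table gives ratios of 1.41, 1.32 and 1.39 for them, with unadjusted p-values of 0.00802, 0.0215 and 0.0327. The smallest fold in that table is 1.2. All 4 TgMsi1 arrays lay above all 4 wild-type arrays in 1.88% of all probes and at 2 of the 3 Ppa2 probes, in the contrast that chose them.

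The differences of the 2 lines were close in size. At the 456 probe the TgMsi2 difference exceeded the TgMsi1 difference by 0.02 (95% interval -0.18 to 0.22). At the 471 probe the excess was 0.07 (-0.16 to 0.31), and at the junction probe it was -0.01 (-0.46 to 0.43). These intervals leave room for lines that differ, most at the junction probe, and no test was made because the TgMsi1 contrast chose the probes. The 2 lines share no array.

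**Figure D2:**
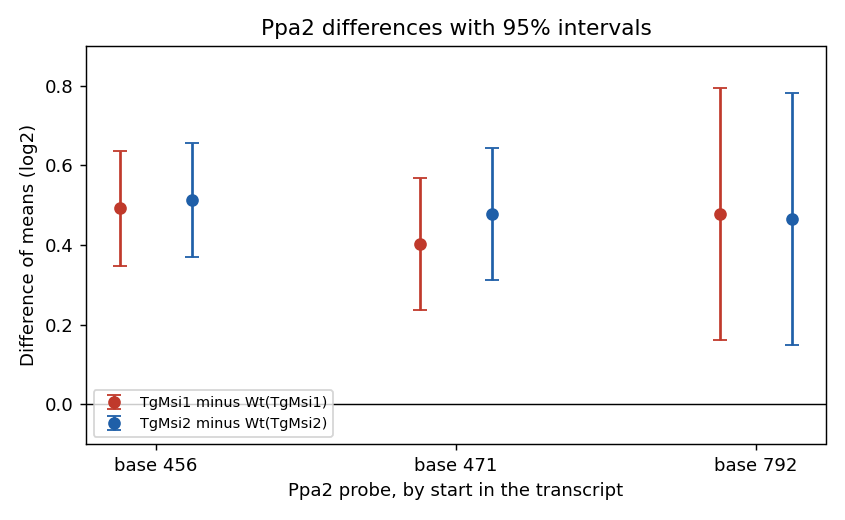
Difference of group means (log2, vertical axis) for each Ppa2 probe, TgMsi1 minus Wt(TgMsi1) in red and TgMsi2 minus Wt(TgMsi2) in blue; bars are 95% intervals from limma. The differences run from 0.40 to 0.51, and the intervals of the junction probe are the widest.

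Across the 4 groups the order of the Ppa2 levels was the same at both overlapping probes. At the 456 probe the means were 11.07 ± 0.04 in TgMsi1, 11.00 ± 0.05 in TgMsi2, 10.58 ± 0.15 in Wt(TgMsi1) and 10.49 ± 0.11 in Wt(TgMsi2) (SD, n = 4 each). At the 471 probe they were 11.31 ± 0.17, 11.25 ± 0.04, 10.91 ± 0.14 and 10.77 ± 0.07 in the same order of groups (SD, n = 4 each). At the junction probe, TgMsi2 (12.09 ± 0.12) came before TgMsi1 (12.07 ± 0.31), and Wt(TgMsi2) (11.62 ± 0.19) before Wt(TgMsi1) (11.59 ± 0.24; SD, n = 4 each). At each probe the ranges of the 2 transgenic groups overlapped, and so did those of the 2 wild-type groups. Wt(TgMsi1) minus Wt(TgMsi2) was 0.09, 0.14 and -0.03 in the order of the probes, with 95% intervals that span 0.

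The 3 probes followed one another over the 16 arrays. Pearson's r was 0.95 between the overlapping probes at bases 456 and 471, 0.82 between bases 456 and 792, and 0.86 between bases 471 and 792. Once each group's mean was taken away, r was 0.66, 0.50 and 0.73 in that order. The probes share the RNA and the array, so these values are descriptions. Replicate 2 was the highest array of its group at all 3 probes in both TgMsi1 and Wt(TgMsi1). The other groups had no array that was highest at all 3 probes. At the junction probe, replicate 2 was the highest array in every group.

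**Figure D3:**
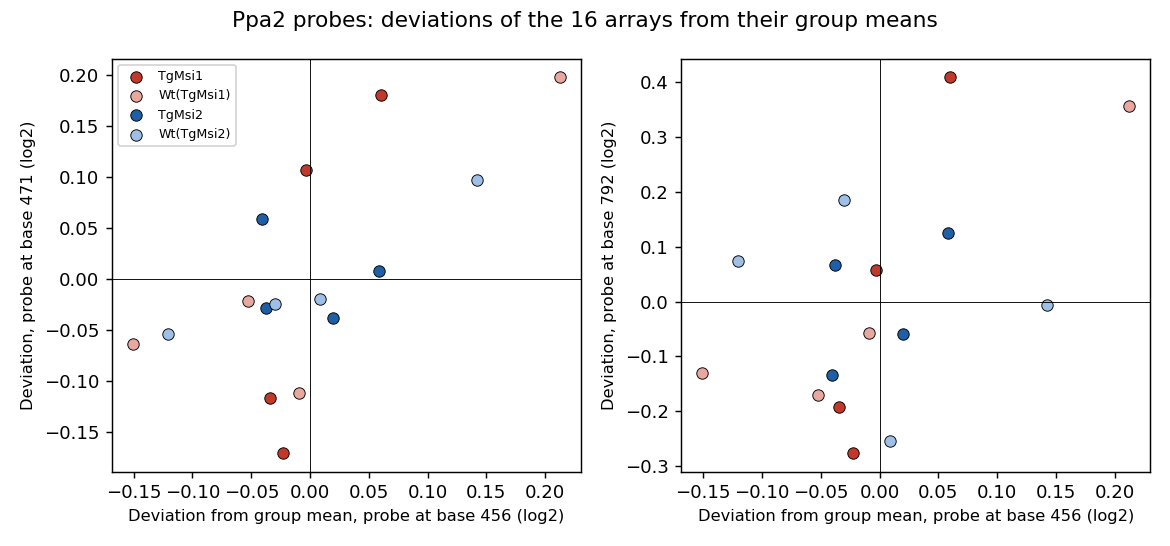
Deviation of each of the 16 arrays from its group mean (log2) at the 456 probe (horizontal axes) against the 471 probe (left) and the junction probe (right), coloured by group. Replicate 2 of Wt(TgMsi1) is the point farthest to the right in both panels.

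TgMsi2 replicates 1 and 3 stood apart from the other arrays across all probes, at 35.3 and 30.2 on the first principal component, which held 40.9% of the variance, against 13.6 and 9.2 for TgMsi2 replicates 2 and 4. TgMsi1 replicate 2 lay at 10.7 and the other 11 arrays between -16.4 and -3.5. Ppa2 was averaged over its 3 probes, each centred on its mean over 16 arrays. This mean stood at 0.19 and 0.18 on TgMsi2 replicates 1 and 3 and at 0.28 and 0.22 on replicates 2 and 4. Of the single probes, only the junction probe was lowest on replicates 1 and 3 within TgMsi2. The 471 probe was highest on replicate 3 (11.31). Without replicates 1 and 3 the log2 differences were 0.52, 0.47 and 0.56 in the order of the probes. The 456 probe kept its call then (limma adjusted p = 0.0201) and the other 2 had none, while the calls over all probes fell to 97 higher and 104 lower, against 1594 and 1366 with all arrays.

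The authors' deposited TgMsi1 table lists 128 probes as higher. In TgMsi2, 25 of the other 125 were called higher by limma (20%) and 2 lower (1.6%), and 35 (28%) had all 4 transgenic arrays above all 4 wild-type arrays. Ppa2 at base 456 had the smallest TgMsi2 p-value of the 128, Ppa2 at base 471 the third smallest and Ppa2 at base 792 ranked 32. Gsdmd, the pore-forming gasdermin D (Gsdmdc1 in the tables), ranked 2. Its TgMsi2 log2 difference of 1.10 was the largest of the 128, where the Ppa2 probes ranked 9, 11 and 12 by size.

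**Figure D4:**
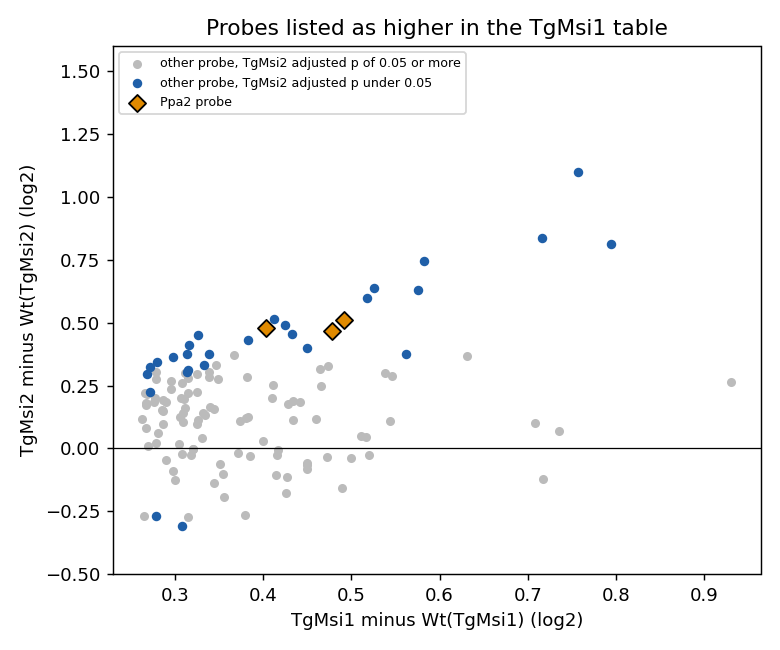
Log2 difference in the TgMsi2 line (vertical axis) against that in the TgMsi1 line (horizontal axis) for the 128 probes listed as higher in the authors' deposited TgMsi1 table, which fixes the horizontal values to be above 0. The 3 Ppa2 probes (orange) lie at TgMsi2 differences of 0.47 to 0.51, and blue points passed limma's threshold in TgMsi2.

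RNA of a whole testis mixes germ cells with somatic cells of several types, and in such bulk RNA fewer cells of a type cannot be told apart from less RNA per cell. Names exist only for the 932 probes of the 2 tables, so other list members on the array have no value here. The authors' deposited TgMsi2 table lists as higher 5 of 16 Sertoli, 5 of 13 Leydig, 3 of 15 macrophage and immune, 2 of 8 myoid and 1 of 9 endothelial genes on the array. Over all 18097 gene symbols of the array design that share is 2%. Listed as lower, against 1.38% of all symbols, were 4 of 10 round spermatid, 1 of 12 elongating spermatid and 1 of 13 spermatocyte genes. The summed linear signal of the named Sertoli genes ranged from 46889 to 70687 in TgMsi2, against 34938 to 42067 in Wt(TgMsi2). For the named Leydig genes it was 16231 to 25115 in TgMsi2, against 9730 to 13561 in Wt(TgMsi2). For the named immune genes it was 2236 to 2612 in TgMsi2, against 1089 to 1383 in Wt(TgMsi2). For the endothelial gene Robo4 it was 901 to 1554 in TgMsi2, against 278 to 301 in Wt(TgMsi2).

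These somatic sums overlapped in the TgMsi1 line. The Sertoli sum was 34087 to 47214 in TgMsi1, against 32799 to 41555 in Wt(TgMsi1), the Leydig sum 10508 to 14431 in TgMsi1, against 8216 to 12592 in Wt(TgMsi1), and the immune sum 1072 to 1306 in TgMsi1, against 1033 to 1354 in Wt(TgMsi1). The elongating spermatid genes with a name, the sperm glycolytic enzyme Gapdhs and the protamine-family gene Prm3, had a lower summed signal in transgenic than in wild-type arrays of both lines, with no overlap. The sum was 11725 to 16107 in TgMsi1, against 17138 to 20937 in Wt(TgMsi1), and 13497 to 15940 in TgMsi2, against 21670 to 23493 in Wt(TgMsi2). These are 2 of 12 elongating spermatid genes on the array. Gapdhs stands in the TgMsi1 table and Prm3 in the TgMsi2 table, so each sum holds a gene chosen by that line's own difference. Prm3 alone overlapped in the TgMsi1 line. Of all single probes, 2.16% had all transgenic arrays below all wild-type arrays in the TgMsi1 line and 8.42% in the TgMsi2 line. The 4 round spermatid genes summed to 6384 to 10594 in TgMsi1, against 9563 to 11494 in Wt(TgMsi1), and to 5162 to 8615 in TgMsi2, against 10408 to 12399 in Wt(TgMsi2). These genes were named for a difference in these arrays, and the part of cell composition in the Ppa2 differences was not tested. All the named somatic and round spermatid genes stand in the TgMsi2 table. Among them only the immune gene Fcer1g also stands in the TgMsi1 table. A wider separation of their sums in the TgMsi2 line can therefore follow from the choice of genes.

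Of the genes that make or use pyrophosphate, few had a named probe. Ppa2 was the only named member of 9 pyrophosphate turnover genes on the array, and its cytosolic relative Ppa1 is in neither table. Of 20 genes of mitochondrial DNA maintenance and nucleotide supply, the one with a name was Ssbp1, the mitochondrial single-stranded DNA-binding protein. It had a TgMsi2 log2 difference of 0.22 (SE 0.07, limma adjusted p = 0.0429) and a TgMsi1 difference of 0.27. The TgMsi2 call was lost in 9 of the 16 fits with 1 array left out. It was also lost with the 8 TgMsi2-line arrays alone (limma adjusted p = 0.0693). None of 17 aminoacyl-tRNA synthetases acting in mitochondria was in a table. Of 16 acyl-CoA synthetases, which release pyrophosphate as they activate fatty acids, both named members were called higher in TgMsi2: the mitochondrial acetyl-CoA synthetase Acss1 (0.80, limma adjusted p = 0.00864) and Acsbg1, at both of its probes (0.70 and 0.77, limma adjusted p 0.0154 and 0.0265). The second Acsbg1 probe lost its call without any 1 of TgMsi2 replicates 1 and 3 and Wt(TgMsi2) replicates 2, 3 and 4. The limma adjusted p was then 0.0575 to 0.0859. With the 8 TgMsi2-line arrays alone that probe also lost its call (limma adjusted p = 0.0766). The first Acsbg1 probe lost its call without TgMsi2 replicate 1 (0.053). Without TgMsi2 replicates 1 and 3 together, Acss1 had a difference of 0.43 (limma adjusted p = 0.097) and the Acsbg1 probes 0.50 and 0.40 (0.224 and 0.376), so neither gene was called. Of all probes, 6.2% were called higher with all arrays. Acss1 and Acsbg1 were named through the authors' deposited TgMsi2 table, so their TgMsi2 values are descriptions. That share is no yardstick for them.

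Of 53 oxidative phosphorylation genes on the array, 3 had a name and 1 was called in TgMsi2. The complex-associated subunit Ndufa4 rose by 0.69 (limma adjusted p = 0.0308). That call was lost when any 1 of the same 5 arrays was left out (0.0534 to 0.108). It was also lost with the 8 TgMsi2-line arrays alone (limma adjusted p = 0.1). Without TgMsi2 replicates 1 and 3 together the Ndufa4 difference was 0.34 (0.453). Atp5l, a subunit of ATP synthase, had a TgMsi2 difference of 0.12 (limma adjusted p = 0.338). The listed members were named for a difference in 1 of the 2 lines, and the lists were read as counts only. Ndufa4 was named through the TgMsi2 table, so its TgMsi2 values are a description.

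Along chromosome 3, named probes within 5 Mb of a Ppa2 probe belonged to 2 genes. Both were named through the authors' deposited TgMsi2 table, so their TgMsi2 differences and limma p-values are descriptions. Gstcd, a gene with a glutathione S-transferase domain, is the third protein-coding gene before Ppa2 in RefSeq's order, and its probe (chr3:132645798-132645847) lies 0.356 Mb away in the tables' coordinates. It ran opposite to Ppa2. The Gstcd log2 signal was 8.60, 9.12, 9.26 and 9.25 in TgMsi2, against 10.12, 10.15, 9.84 and 10.11 in Wt(TgMsi2), and it fell by 1.00 (SE 0.20, limma adjusted p = 0.00711), a call lost without TgMsi2 replicates 1 and 3 (-0.87, 0.0967). In TgMsi1 it was 9.64, 8.75, 9.76 and 9.68, against 10.17, 9.85, 10.00 and 10.07 in Wt(TgMsi1), a difference of -0.57 (SE 0.20) with separate groups. All 4 transgenic arrays lay below all 4 wild-type arrays in 8.42% of all probes in the TgMsi2 line and in 2.16% in the TgMsi1 line. The TgMsi2 share is no yardstick for Gstcd, whose TgMsi2 difference gave it a name. TgMsi1 replicate 2, the highest TgMsi1 array for Ppa2, was the lowest for Gstcd.

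The other neighbour was the alcohol dehydrogenase gene Adh1, whose 2 probes lie about 4.91 and 4.92 Mb away. They had TgMsi2 differences of 0.87 (SE 0.23, limma adjusted p = 0.0284) and 0.84 (SE 0.25, limma adjusted p = 0.0396), with signals of 9.62 and 9.64 at the first probe on TgMsi2 replicates 1 and 3, against 8.73 and 8.30 on replicates 2 and 4 of the same group. Without TgMsi2 replicates 1 and 3 the differences were 0.31 and 0.29, and neither was called (limma adjusted p 0.337 and 0.475). Each call was also lost without TgMsi2 replicate 1 or 3 alone, or without Wt(TgMsi2) replicate 2, 3 or 4. With the 8 TgMsi2-line arrays alone neither Adh1 probe was called (limma adjusted p 0.107 and 0.13). Of the neighbours next to Ppa2 in RefSeq's order, Arhgef38 and Tet2, neither symbol is in the array design. Older names of these genes were not looked for.

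The named genes whose profile over the 16 arrays was most like that of Ppa2 (mean of its 3 centred probes) were Gsdmd (r = 0.92), the sodium pump regulator Fxyd2 (0.90), the uridine-cytidine kinase Uck2 (0.88), the signalling scaffold Wwc1 (0.87) and the palmitoyltransferase Zdhhc6 (0.87). In TgMsi2, Gsdmd, Fxyd2 and Zdhhc6 rose by 1.10, 0.84 and 0.60 (limma adjusted p 0.00101, 0.0116 and 0.0115). Without TgMsi2 replicates 1 and 3, Fxyd2 (0.99, limma adjusted p = 0.0754) and Zdhhc6 (0.58, 0.145) lost their calls. Uck2 and Wwc1 had differences of 0.26 and 0.22 with limma adjusted p of 0.0741 and 0.0541. Both passed without TgMsi1 replicate 1 or 2 (0.0323 to 0.043). Other named Uck2 probes had TgMsi2 differences of 0.17 and -0.09 (limma adjusted p 0.171 and 0.689), so the probes of Uck2 did not run alike. The most opposite profiles were those of Prm3 (r = -0.94), the adipokine gene Adipoq (-0.93), the interferon-responsive Epsti1 (-0.93), the decapping factor Dcp1a (-0.92) and the growth factor Gdf9 (-0.92). All 5 fell in TgMsi2, with log2 changes of -1.45, -1.87, -0.77, -0.82 and -1.23 and limma adjusted p of 0.000543 to 0.00409. Without TgMsi2 replicates 1 and 3, Prm3 (-1.31, limma adjusted p = 0.0874) and Adipoq (-1.70, 0.0878) lost their calls. Tabled probes stand there for a difference between groups, so r is a description. These genes were picked by their likeness to Ppa2, which was higher in TgMsi2. All but Uck2 and Wwc1 also stand in the TgMsi2 table. Their TgMsi2 differences and limma p-values are therefore descriptions too.

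By deviations from the group means alone, the closest named genes were the RNA-surveillance factor Zcchc8 (r = 0.93), the protocadherin Pcdh17 (0.88), Zdhhc6 (0.85), the chromatin factor Dpf3 (0.78) and the sperm flagellar gene Qrich2 (0.78). None of these but Zdhhc6 was called in TgMsi2: Zcchc8 had a difference of 0.25, Pcdh17 -0.02, Dpf3 0.05 and Qrich2 -0.31 (limma adjusted p 0.446, 0.945, 0.936 and 0.0834). Qrich2 passed without TgMsi2 replicate 4 (-0.38, limma adjusted p = 0.044). Zdhhc6 was thus the one gene on both lists of likeness.

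**Figure D5:**
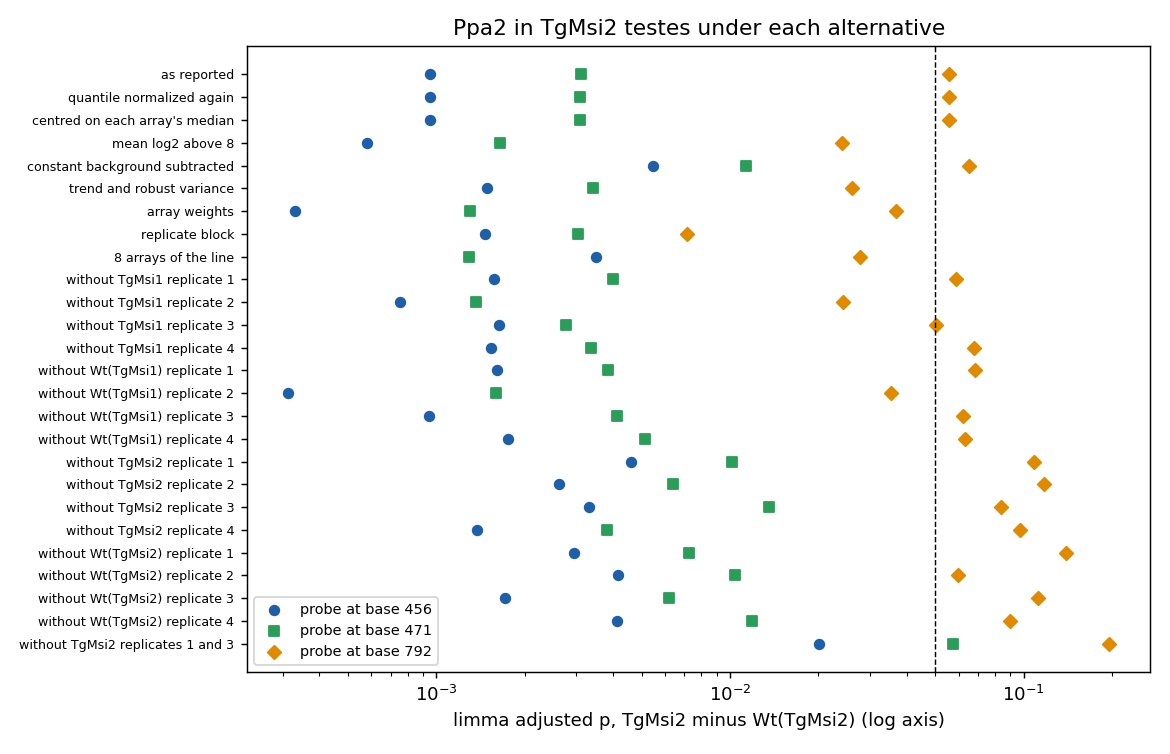
Limma adjusted p of the TgMsi2 difference (horizontal log axis) for each Ppa2 probe under each way of processing the arrays (rows); the dashed line marks 0.05. The 456 probe stays left of the line in every row, the 471 probe in every row but the last, and the junction probe crosses it in both directions.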

How the data were processed

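The authors deposited log2 values of 25697 probes on 16 arrays, along with 2 comparison tables that give per probe a p-value, a ratio of transgenic over wild type and a signed fold-change score, per the file headers. GenomeStudio is named in the submitters' processing notes. How the values were normalized is not recorded in the sources used here, and the sorted columns differed by at most 0.00601. The log2 of the authors' ratios differed from the group means by at most 5.92e-06. A table of unnormalized signals holds 128 columns by slide position, which match no sample's labels. These were not used, and only its gene symbols and probe numbers were read. Precision is set by the number of arrays.

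Limma 3.58.1 (R 4.3.3) was fitted with 1 mean per group over all 16 arrays and all probes, and p-values were adjusted by Benjamini-Hochberg over 25697 probes, with a threshold of 0.05. The fit was tested on simulated data. Exact permutation tests were run in scipy 1.17.1. Alternatives were another normalization, a filter, a constant background, other variance models, array weights, the replicate number as a block, and arrays left out. The named genes are the 5 most alike and 5 most opposite profiles, the 5 closest by deviations, named probes within 5 Mb, and up to 4 members per pathway list. One gene that this rule names is not reported here. One probe was counted per gene, predicted genes and clones were left out, and 14 lists were read. The members and lists were chosen with earlier results of these data known. Of 24 probes named beside Ppa2, 23 matched RefSeq (GRCm38.p6) by Entrez number.

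Same-numbered arrays did not pair throughout: correlations of their deviations from the group means, over probes with a mean log2 above 8, ran from -0.32 to 0.45. The main fit used no pairing.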

Additional observations from a re-analysis of the deposited data

How the results depend on the processing

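The TgMsi2 difference of Ppa2 kept its direction under every alternative run. Its log2 values were 0.47 to 0.57 at the 456 probe, 0.46 to 0.52 at the 471 probe and 0.38 to 0.56 at the junction probe. Most alternatives could not turn the sign, so the kept direction adds little. The TgMsi2 and Wt(TgMsi2) arrays did not overlap at any probe, so leaving out or weighting arrays could not reverse it. The filter, the variance models, the replicate block and the 8 arrays of the line leave the difference itself unchanged. The 456 probe kept its call throughout (limma adjusted p at most 0.0201). The 471 probe lost it only without TgMsi2 replicates 1 and 3 together (0.47, adjusted p = 0.0574), a fit with 2 transgenic arrays that left 1 Ppa2 probe called. The junction probe gained a call over probes with a mean log2 above 8 (0.47, fewer probes tested), with trend and robust variance (0.47), array weights (0.46), the 8 arrays of the line (0.47) and the replicate block (0.47, adjusted p = 0.00717). It also gained one without TgMsi1 replicate 2 or Wt(TgMsi1) replicate 2, and over all fits with 1 array left out its value was 0.38 to 0.53 and its adjusted p 0.0243 to 0.139. Apart from the junction probe, the replicate block changed no call of Ppa2. No label says what same-numbered arrays share beyond the number. In neither line did every array correlate best with its own number, though replicates 2 and 3 of the TgMsi1 line and replicate 1 of the TgMsi2 line did. The correlations were 0.02 to 0.45 in the TgMsi1 line and -0.32 to 0.37 in the TgMsi2 line. Whether same-numbered arrays shared a batch was not tested. Under the replicate block Uck2, Wwc1 and Qrich2 gained calls and Ssbp1 lost its call. Likeness between probes dropped to 0.66 (456 and 471 probes) and 0.50 (456 and junction probes) on deviations from group means.

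Of the named genes, Pcdh17 turned sign without TgMsi2 replicates 1 and 3 (0.023) and ran between -0.0989 and 0.0207 with 1 array left out, while Dpf3 ran between -0.0575 and 0.163. The count of probes called higher in TgMsi2 was 1594, and 1015 from the 8 arrays of the line, 97 without TgMsi2 replicates 1 and 3, and 672 to 1969 with 1 array left out. The count called lower was 1366, 104 and 633 to 1561 in the matching fits. The 25 other probes of the TgMsi1 table called higher became 7 without TgMsi2 replicates 1 and 3. The causes were not tested. The wild-type comparison and the difference between lines have no value from 8 arrays of 1 line, and the slide as a block was not run because no label ties arrays to slides.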
